A study of Mus musculus with 4 samples.

Results

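The aminoacyl-tRNA synthetase genes were followed in RNA-seq libraries of double-positive (DP) thymocytes, the CD4+CD8+ cells that make up most of the thymus. The members were chosen by name, as a list of 36 gene symbols looked up in the authors' deposited comparison table, and all 36 were found among the 43430 genes of the count table. Of these, 20 encode the enzymes of the cytosol and 16, whose symbols end in 2, the enzymes of mitochondria. All 36 members passed the filter on low counts, which left 13281 genes for testing.

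Each aminoacyl-tRNA synthetase joins 1 amino acid to its own tRNAs, which the ribosome then reads. Cytosolic protein synthesis and the small set of proteins made inside mitochondria use mostly separate synthetases, and both kinds are encoded in the nucleus. Mitochondrial ribosomes make core subunits of the respiratory chain, and defects of the mitochondrial synthetases are known to cause respiratory chain disease. Several cytosolic synthetase genes are targets of ATF4, the transcription factor of the amino acid response, which is induced when uncharged tRNAs activate the kinase GCN2 and in many cells when mitochondria fail.

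The study compared 2 mice in which Uqcrfs1 had been deleted in the T cell lineage (Uqcrfs1 fl/fl with CD4-Cre, called KO) with 2 littermates labelled WT, all on a C57BL/6 background, with 1 library per mouse. The product of Uqcrfs1 is the Rieske protein, a catalytic subunit of complex III. The series text calls the controls heterozygous, so WT is used as a group name only, and the sources used here do not say whether the controls carried Cre, nor give age. CD4-Cre acts from about the DP stage on, so protein made before the deletion can still be present in DP cells. The cells were sorted to a stated purity of over 98%, and total RNA was used for the libraries.

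The libraries held 30408863 to 34080516 counts in genes. Levels are given as CPM, the counts scaled to each library's total with TMM factors, and values of the 4 libraries are always listed with the WT mice first, each group in the order of its replicate numbers. Uqcrfs1 read 61.4, 57.2, 15.6 and 18.6 CPM, so the libraries matched their labels. In bulk RNA, fewer cells of a type and less RNA per cell cannot be told apart. Among cell types that the sort should remove, markers of double-negative thymocytes, the earlier stage, summed to 103, 106, 132 and 176 CPM. Of these markers, 7 of 7 tested were above 0 in log2 change, and Gata2 was at 0 in every library. The groups of Hes1, Il7r and Kit overlapped, and Notch3 made up most of the sum, at 65.9, 65.1, 82.5 and 98.4 CPM. Dtx1 read 11.0, 11.2, 18.4 and 25.3 CPM, and Il2ra 8.50, 10.5, 12.9 and 26.4 CPM. In the quasi-likelihood test described below, 3 of the 7 had an unadjusted p under 0.05, against 8.4% of all genes, and 0 were called. Markers of mature T or NKT cells summed to 21.4, 20.6, 16.4 and 33.2 CPM, and those of B cells to 28.9, 25.6, 29.5 and 28.1 CPM. Myeloid markers summed to 17.7, 16.8, 17.1 and 29.9 CPM, and S100a8 and S100a9 were at 0 in all libraries but KO replicate 2. Markers of DP cells (Rag1, Cd4, Cd8a and others) summed to between 18284 and 19513 CPM. Of 10 DP markers tested, 6 had a log2 change above 0 and 4 below, and 2 had an unadjusted p under 0.05. These were Cd8a and Cd3e, with both KO libraries below both WT libraries. The part of other cell types in the synthetase values was not tested.

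No synthetase gene passed the test between KO and WT, which was edgeR's quasi-likelihood test with Benjamini-Hochberg adjustment over all genes at a threshold of 0.05. In that test 0.0226% of all genes were called, that is 3 of 13281, so a count of 0 among 36 members is near the background. DESeq2 also called 0 members, against 0.181% of all genes, and edgeR's exact test called 1, Lars2, against 0.61%. At an unadjusted p under 0.05 in the quasi-likelihood test there were 2 members, Lars2 and Pars2, both mitochondrial, against 8.4% of all genes. The log2 change of KO over WT was above 0 in 17 members and below 0 in 19, where 49.9% of all genes were above 0 and 50.1% below.

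The cytosolic genes lay closer to 0 than the mitochondrial genes, and they also had higher counts, with a median level of 86.0 CPM against 37.2 CPM. Log2 changes ran from -0.12 to 0.10 over the 20 cytosolic members, and 19 of them lay within 0.1 of 0. Over the 16 mitochondrial members they ran from -0.29 to 0.57, and 9 lay within 0.1 of 0, against 56.2% of all genes. The medians were -0.0158 and 0.00361, a difference of 0.0194, below the spread of that difference between replicates (SD 0.0729, pooled over the 2 groups). The median standard error was 0.058 for the cytosolic members, 0.081 for the mitochondrial members and 0.086 for all genes.

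The intervals of this test, each for a single gene and not adjusted over members, set how large a change these libraries can hold under that fit. The 95% interval of the fold change lay within 1.2-fold in either direction for all 20 cytosolic members. This depended on the fit. With the replicate number as a block, the log2 interval of Wars was -0.119 ± 0.151, which reaches past 1.2-fold. For the mitochondrial members it did so in 9 of 16, and the exceptions were Ears2, Fars2, Lars2, Mars2, Nars2, Pars2 and Yars2. With a limit of 1.5-fold, 15 of 16 mitochondrial intervals lay inside, all but that of Lars2.

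**Figure D1:**
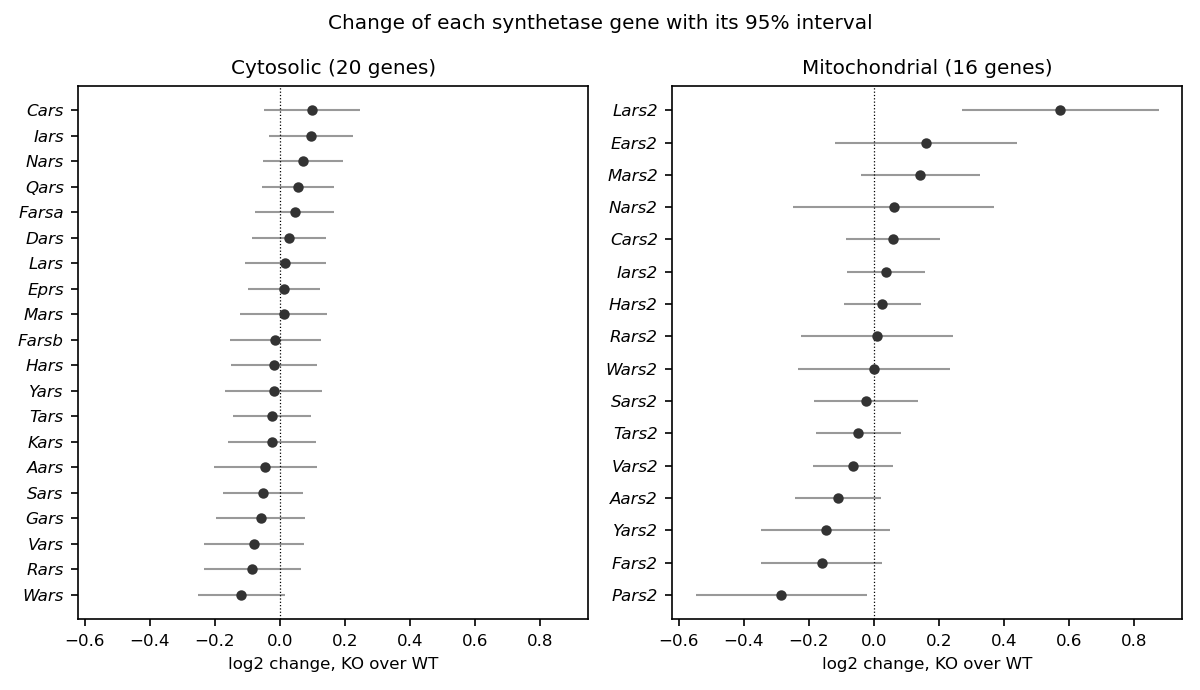
Log2 change of KO over WT (x axis) for each synthetase gene (y axis), with cytosolic and mitochondrial genes in separate panels; points are edgeR estimates and bars are 95% intervals. The 20 cytosolic estimates lie between -0.12 and 0.10, while Lars2 stands apart at 0.57 and Pars2 at -0.29 among the mitochondrial genes.

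Both KO libraries lay on the same side of both WT libraries in 17 of the 36 members (47.2%), against 40.5% of all genes tested. This held for 8 of 20 cytosolic members, with 6 above WT and 2 below, and for 9 of 16 mitochondrial members, with 5 above and 4 below. Over all genes, 20.4% had both KO libraries above and 20.1% both below. The cytosolic share without overlap, 40%, was close to that of all genes, and the mitochondrial share was 56.2%.

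Lars2, the mitochondrial leucyl-tRNA synthetase gene (chr9:123366940-123462664, mm10, plus strand), had the largest difference of the 36. It read 148, 116, 209 and 182 CPM. Both KO libraries were above both WT libraries, and the gap between the WT libraries, 0.35 in log2, was wider than any within-group gap of another member except Nars2. The means were 132 ± 22.7 and 196 ± 18.8 CPM (SD, n = 2), 1.49-fold higher in KO.

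The log2 change of Lars2 was 0.57 (SE 0.12, 95% interval 0.27 to 0.87), and its adjusted p in edgeR's quasi-likelihood test was 0.443. Its call depended on the test. The adjusted p ranged from 1.28e-04 to 0.510 over the 11 alternatives, and Lars2 passed the threshold in 4 of them. These were edgeR's exact test (4.34e-04), no filter on low counts (1.28e-04, where 0.911% of all genes were called), the replicate number as a block (0.00328, with 0.203% called) and the fit without KO replicate 2 (0.00622, with 0.322% called). In the authors' deposited table, 80 of 11536 genes had an adjusted p under 0.05, and Lars2 was the one synthetase gene among them. Its log2 change there was 0.57, and its adjusted p in the authors' likelihood ratio test was 2.66e-05.

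Part of the Lars2 transcript is not unique to it. A stretch of 72 bases in its 3' UTR (bases 3278 to 3349 of the 3894-base coding transcript) matches the antisense transcript gene Gm15564 at 98.6% identity, and 97 bases (3233 to 3329) match AA474408 at 94.8%. Gm15564 read 35.9, 25.4, 55.9 and 46.7 CPM, with a log2 change of 0.74 (SE 0.17, adjusted p = 0.487 in edgeR's quasi-likelihood test). Its libraries followed the same order as those of Lars2, with both KO libraries above both WT libraries. AA474408 read 1.22, 1.81, 1.09 and 1.36 CPM, so its groups overlapped.

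Of 2 short annotated RNA genes named after their values were seen, Mir6236 read 41.5, 32.9, 65.0 and 57.1 CPM and Gm23935 read 53.4, 38.5, 79.1 and 71.7 CPM. These too were in the order of Lars2, although no shared stretch with Lars2 was found for either. For every 100 CPM of Lars2 the libraries held 24.3, 22.0, 26.8 and 25.6 CPM of Gm15564, and 28.1, 28.4, 31.1 and 31.3 CPM of Mir6236. For Gm23935 the ratio was 36.2, 33.3, 37.9 and 39.3. These ratios varied less between libraries than the levels did. Since Mir6236 and Gm23935 were named after their values were seen, their steadier ratios are no separate result. Counts per gene do not show where in Lars2 the reads lie, and the part of the shared stretch in its difference was not tested.

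**Figure D2:**
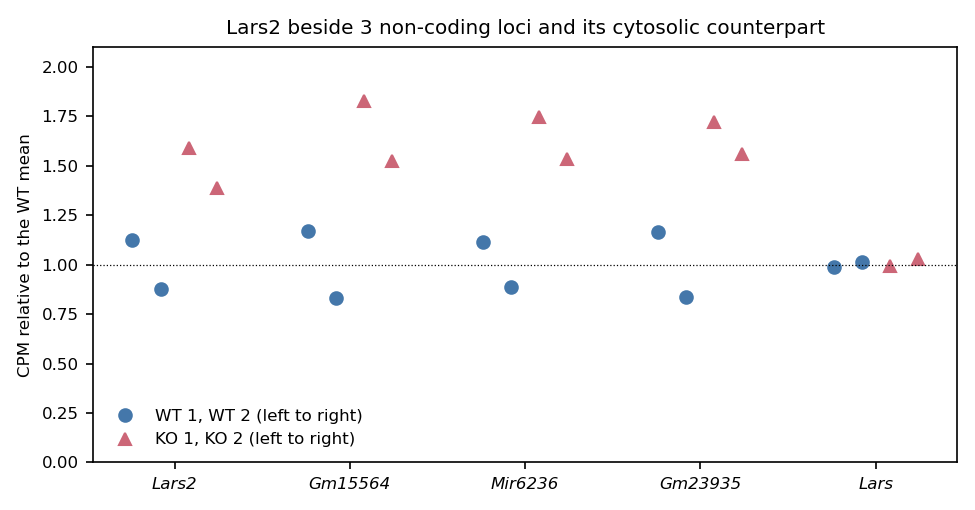
CPM of Lars2, Gm15564, Mir6236, Gm23935 and the cytosolic gene Lars (x axis) in each library, divided by the gene's WT mean (y axis); each point is 1 library, with circles for WT and triangles for KO. The first 4 genes are lowest in WT replicate 2 and highest in KO replicate 1, while the libraries of Lars lie together.

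Pars2, the mitochondrial prolyl-tRNA synthetase gene, had the largest difference in the other direction. It read 12.5, 11.2, 9.30 and 10.2 CPM. Both KO libraries were below both WT libraries. The log2 change was -0.29 (SE 0.12, unadjusted p = 0.0363, adjusted p = 0.569 in edgeR's quasi-likelihood test), and it lay between -0.36 and -0.21 when each library was left out.

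The 4 other mitochondrial members with the smallest p were Fars2, Aars2, Mars2 and Yars2. Fars2, which charges phenylalanine as a single chain unlike the 2-subunit cytosolic enzyme, read 21.1, 21.1, 18.7 and 19.1 CPM (log2 change -0.16, SE 0.08). It has 115 exonic bases in common with Lyrm4 on the other strand, and Lyrm4 read 6.98, 6.42, 5.10 and 5.07 CPM. For both genes the KO libraries were below the WT libraries, and without a stated strand setting reads of the common bases cannot be assigned to one of them.

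Aars2, for alanine, read 121, 115, 114 and 105 CPM (log2 change -0.11, SE 0.06). Yars2, for tyrosine, read 20.3, 19.1, 18.1 and 17.4 CPM (log2 change -0.15, SE 0.09). In both genes the KO libraries were the lower ones, with adjusted p of 0.637 and 0.670 in edgeR's quasi-likelihood test. Mars2, for methionine, read 45.8, 53.5, 56.4 and 53.1 CPM, so its groups overlapped.

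Of the remaining mitochondrial members, Ears2, Cars2, Hars2 and Iars2, for glutamate, cysteine, histidine and isoleucine, had both KO libraries above both WT libraries, at log2 changes of 0.16, 0.06, 0.02 and 0.04. Ears2, the member with the lowest CPM, read 7.74, 7.81, 8.36 and 9.01. The groups of Nars2, Rars2, Sars2, Tars2, Vars2 and Wars2, for asparagine, arginine, serine, threonine, valine and tryptophan, overlapped. Nars2 had the widest gap between libraries of a group, and read 11.7, 15.1, 14.8 and 13.0 CPM.

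Among the cytosolic members, Wars, the tryptophanyl-tRNA synthetase gene, which is also known as an interferon-induced gene, had the smallest p. It read 48.9, 49.1, 44.4 and 45.8 CPM. Both KO libraries were below both WT libraries, with a log2 change of -0.12 (SE 0.06, adjusted p = 0.627 in edgeR's quasi-likelihood test). Of 16 interferon-stimulated genes tested, 9 had a log2 change above 0 and 7 below, with a median of 0.02. Several differed widely between the 2 WT libraries, such as Ifit1 at 1.13 and 4.45 CPM and Usp18 at 6.55 and 13.9 CPM. Others, such as Gbp2 at 29.1 and 32.1 CPM, lay closer. This spread limits what the median can show. None was called, and Bst2 alone had an unadjusted p under 0.05, at a log2 change of -0.26, against 8.4% of all genes.

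Iars, for isoleucine, read 90.3, 97.6, 99.3 and 101 CPM (log2 change 0.10, SE 0.06). Cars, for cysteine, read 42.6, 40.6, 43.2 and 45.9 CPM (log2 change 0.10, SE 0.07). Nars, for asparagine, read 84.9, 80.8, 86.1 and 87.8 CPM (log2 change 0.07, SE 0.05). In these 3 genes the KO libraries were the higher ones, by small margins, and none was called. Dars, Farsa and Qars also had both KO libraries above both WT libraries, and Sars both below.

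The groups of Rars and Vars, for arginine and valine, overlapped. Rars read 59.7, 54.8, 52.6 and 55.5 CPM, and Vars 192, 169, 165 and 176 CPM. Aars, for alanine, had the widest gap within a group among cytosolic members, and read 112, 97.8, 99.7 and 104 CPM. The groups of Eprs, Farsb, Gars, Hars, Kars, Lars, Mars, Tars and Yars overlapped too.

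In Rars, Vars and Aars, WT replicate 1 was above WT replicate 2, and KO replicate 2 above KO replicate 1. That order was common in the cytosolic set, a pattern seen only after the values were known. It held in 12 of 20 cytosolic members (60%) and the opposite order in 0, against 25.2% of all genes tested. Of the mitochondrial members, 4 of 16 had it and 6 had the opposite order. The summed level of 7 genes of cytosolic elongation, the kinase gene Eef2k among them, had the same order. It was 6478, 5869, 5980 and 6358 CPM, mostly from Eef1a1 and Eef2. These differences lie within the genotypes, and the widest, of Aars, was 0.20 in log2, above the size of every cytosolic log2 change of KO over WT.

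Several cytosolic synthetases are held together in the multisynthetase complex, which is built on the scaffold proteins of Aimp1, Aimp2 and Eef1e1. Of its 8 members (Dars, Eprs, Iars, Kars, Lars, Mars, Qars and Rars) 6 had a log2 change above 0 and 2 below, with a median of 0.015. Of the 12 cytosolic members outside it, 3 were above 0 and 9 below, with a median of -0.022. The difference between these medians was not tested. Qars, for glutamine, read 206, 197, 211 and 209 CPM (log2 change 0.06). The scaffold genes Aimp1 and Aimp2 had log2 changes of -0.07 and 0.03.

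Synthetases fall into 2 structural classes with different catalytic folds. Class I cytosolic members had a median of 0.011 over 9 genes and class II members -0.021 over 10, with Eprs, which joins a class I to a class II enzyme in 1 chain, left out of both. Farsa and Farsb, which encode the subunits of the cytosolic phenylalanyl-tRNA synthetase, had log2 changes of 0.04 and -0.01. Those of Gars and Kars, each of which makes both a cytosolic and a mitochondrial enzyme from 1 gene, were -0.06 and -0.02.

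Summed over the compartment, cytosolic synthetase genes took 1928, 1834, 1849 and 1904 CPM. The 2 groups overlapped. The mitochondrial sum was 869, 852, 937 and 886 CPM, with both KO libraries above both WT libraries. Lars2 alone made up 17.0% and 13.6% of that sum in the WT mice, then 22.3% and 20.6% in the KO mice. Without Lars2 the mitochondrial sum was 722, 737, 728 and 704 CPM, and the groups overlapped.

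**Figure D3:**
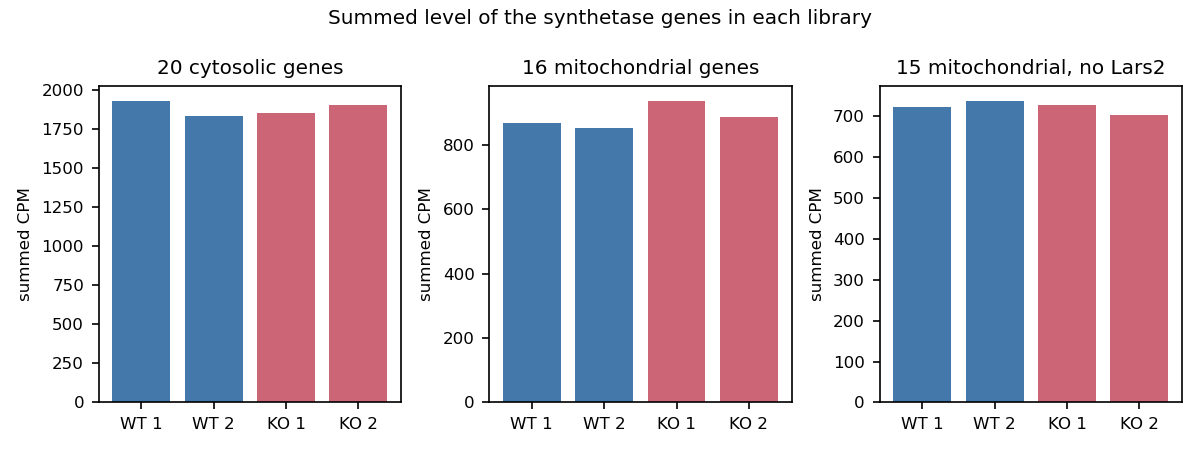
Summed CPM (y axis, from 0) in each of the 4 libraries (x axis) for the 20 cytosolic members, the 16 mitochondrial members and the mitochondrial members without Lars2; each bar is 1 library, so there are no error bars. Both KO bars lie above both WT bars in the middle panel, at 937 and 886 CPM, and not in the panel without Lars2.

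Levels were compared between genes as CPM per kilobase of the longest annotated coding transcript. On this scale the cytosolic members ran from 13.4 to 73.4, with a median of 27.5, and the mitochondrial members from 3.55 to 42.0, with a median of 11.9. Qars (73.4 ± 2.11), Kars (51.7 ± 2.18) and Dars (48.9 ± 0.748; SD over the 4 libraries) were the highest of the cytosol. Cars (13.4 ± 0.677), Wars (16.6 ± 0.817) and Lars (17.4 ± 0.322) were the lowest. Kars and Dars differed by less than their summed SDs, as did Wars and Lars.

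Among mitochondrial members the highest were Lars2 (42.0 ± 10.5), Vars2 (36.8 ± 1.54) and Aars2 (34.1 ± 1.97). The SD of Lars2 includes its difference between the groups. By library, Lars2 read 37.9, 29.7, 53.7 and 46.8 per kilobase, Vars2 36.4, 38.7, 36.9 and 35.0, and Aars2 36.2, 34.5, 34.1 and 31.5. Lars2 was the highest of these 3 in both KO libraries and the lowest in WT replicate 2. Pars2 (3.55 ± 0.452), Nars2 (3.61 ± 0.422) and Ears2 (4.02 ± 0.290) were the lowest, with differences smaller than their summed SDs. The order within each compartment depends on the length used. With all exonic bases as the length, Gars was the highest cytosolic member and Vars2 the highest mitochondrial member, while the medians were 18.7 and 6.02.

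**Figure D4:**
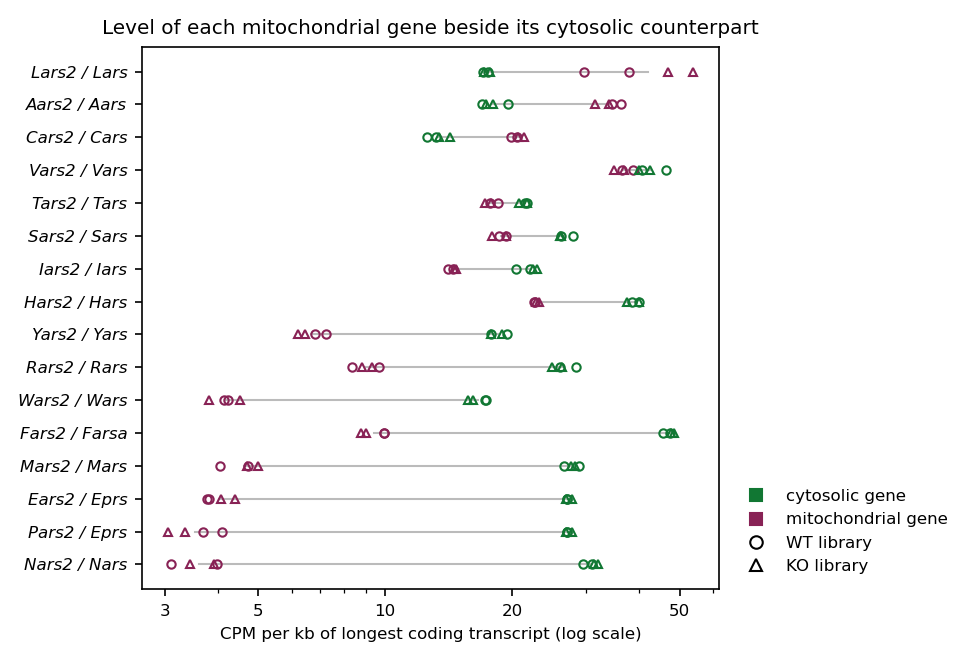
Level of each mitochondrial gene and of its cytosolic counterpart in CPM per kilobase of coding transcript (x axis, log scale), ordered by their ratio; circles are WT libraries, triangles KO libraries, and a line joins the means of the pair. The mitochondrial gene lies to the right in the top 3 pairs, led by Lars2 at 2.42 times Lars, and furthest to the left for Nars2; with all exonic bases as length Cars2 turns to below Cars and the Lars2 ratio is 1.15.

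For 14 amino acids a mitochondrial gene could be set beside 1 cytosolic gene (Farsa for phenylalanine). The mitochondrial gene had the lower mean level per kilobase in 11 pairs and the higher in 3, which were Lars2 over Lars at a ratio of 2.42, Aars2 over Aars at 1.90 and Cars2 over Cars at 1.55. These ratios depend on the length too. With all exonic bases the mitochondrial gene was above in 2 pairs, Aars2 at 2.15 and Lars2 at 1.15, and Cars2 turned to below Cars at 0.828. The widest gap was for asparagine, with Nars 8.54 times as high as Nars2 per coding transcript length. Ears2 and Pars2, whose cytosolic counterpart is the joint gene Eprs, stood at ratios of 0.148 and 0.131 to it, or 0.217 and 0.475 with all exonic bases.

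Between genotypes these ratios overlapped in 9 of 14 pairs. Of all single genes tested, 40.5% had groups without overlap, and no such share was computed for ratios. The ratio of Lars2 to Lars read 2.22, 1.69, 3.12 and 2.64, and that of Fars2 to Farsa 0.209, 0.218, 0.182 and 0.189. The KO ratios were the higher ones for Lars2 and Rars2 and the lower ones for Fars2, Iars2 and Yars2. The difference of log2 changes within a pair ran from -0.21 to 0.55 with a median of 0.00279, and was not tested.

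The amino acid response was read from 25 genes fixed by name, of which 19 were tested, 11 with a log2 change above 0 and 8 below, with a median of 0.01. None was called, and Cebpg alone had an unadjusted p under 0.05, against 8.4% of all genes. Atf4 itself read 130, 127, 136 and 134 CPM (log2 change 0.07, SE 0.05). Cebpg, whose protein pairs with ATF4, had a log2 change of 0.12 (SE 0.05). Slc7a11, the cystine transporter gene, had the next smallest p, with a log2 change of -0.24 (SE 0.11). Asns, the asparagine synthetase gene and a usual target of ATF4, had under 0.32 CPM in every library and was not tested. Of 5 genes of the eIF2alpha kinases and the GCN2 partner Gcn1l1, none was called or had an unadjusted p under 0.05. Eif2ak4, which encodes GCN2, had a log2 change of -0.10 (SE 0.10).

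To show where the ATF4-type element lies in members, promoter windows from RefSeq (GRCm38.p6, 250 bases before to 50 after the annotated start) were searched on both strands for TGATGNAA, the letters of the C/EBP-ATF element. Other motifs were looked at as well, and this one was chosen after the values were known. Windows were at hand for 27 of the 36 members. A match was found in 5 of 13 cytosolic members (38.5%) and in 0 of 14 mitochondrial members, against 3.97% of 32851 windows in the table. A member was counted if any window listed for it held a match, while the 3.97% is a share of single windows. A match is a description of letters and not a bound site. The stretches that hold the matches follow, 5' to 3' in the direction of the gene, with the element in capitals, as its reverse complement where it lies on the other strand. They lie at chr4:129189895-129189924 (Yars), chr6:55037941-55038000 (Gars), chr8:111033704-111033763 and chr8:111033840-111033869 (Aars), chr13:49682126-49682155 (Iars) and chr15:11399659-11399718 (Tars).
Yars: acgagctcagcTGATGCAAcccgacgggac
Gars: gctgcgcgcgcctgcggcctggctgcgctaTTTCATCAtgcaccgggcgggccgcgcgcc
Aars, upstream: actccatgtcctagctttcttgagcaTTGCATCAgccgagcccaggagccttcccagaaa
Aars, past the start: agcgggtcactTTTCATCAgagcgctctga
Iars: cactgtcagtaTTGCATCAcctccagacgc
Tars: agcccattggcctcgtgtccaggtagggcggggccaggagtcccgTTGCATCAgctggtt

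Of the elements shown, those of Yars, Aars upstream, Iars and Tars read TGATGCAA, and those of Gars and Aars past the start read TGATGAAA. The elements of Yars and Iars also lie past the annotated start, at offsets of 3 and 7 bases. Those of Gars, Tars and Aars upstream lie before it, at offsets of -30, -15 and -112. These 5 genes had log2 changes between -0.06 and 0.10, with 1 above 0 and 4 below and a median of -0.02. None was called. Iars alone had groups that did not overlap, which is 20% of these genes against 40.5% of all genes tested.

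No partner gene of the synthetases was called. Mitochondria lack a glutaminyl-tRNA synthetase and make that charged tRNA with the amidotransferase of Gatb, Gatc and Qrsl1. With Mtfmt, which formylates the initiator methionyl-tRNA, 3 of these 4 genes had a log2 change above 0, with Qrsl1 at 0.14 (SE 0.09) and Gatc at 0.10 (SE 0.09). Of 16 genes of tRNA maturation and export 8 were above 0 and 8 below, with Hsd17b10, a subunit of mitochondrial RNase P, at -0.15 and Trnt1, which adds CCA to tRNA ends, at 0.16. Of 10 mitochondrial translation factors 4 were above 0 and 6 below, with Guf1 at 0.17 and Mtrf1 at 0.30. Dtd2, which removes mischarged amino acids from tRNA, was at 0.37 (SE 0.14) among 5 synthetase-like and proofreading genes. Hsd17b10, Guf1 and Dtd2 were the genes of these lists with an unadjusted p under 0.05, against 8.4% of all genes. They were 1 each of the 16, 10 and 5 genes tested in their lists.

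Other members share exonic bases or sequence with neighbours. Aars and Exosc6 overlap by 1326 bases on the same strand, where no strand setting can separate their reads. The identifier of Exosc6 in the annotation used here was not among the counted genes, so Exosc6 was not analysed. Whether its reads enter the level of Aars, and so the ratio of Aars2 to Aars, was not tested. Hars and Hars2 overlap by 195 bases on opposite strands, Iars2 and Rab3gap2 by 2034, Cars2 and Naxd by 422, Ears2 and Ubfd1 by 89, and Mars and Ddit3 by 68. Ubfd1 read 83.2, 90.2, 94.0 and 95.7 CPM, so that it and Ears2 both had KO above WT. Shared stretches, of at least 50 bases at 90% identity, were searched in the longest coding transcript of each member only. Iars shared them with 450 other genes, Tars with 345, Wars2 with 288, Tars2 with 36 and Mars2 with 33. Lars2 and Pars2 shared them with 2 each, and the other 29 members with none. Reads from such stretches can be assigned to the wrong gene or left out by the counting.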

How the data were processed

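RNA of sorted DP thymocytes was sequenced in 4 libraries, 2 KO and 2 WT. Per the submitters' processing notes, the tools were Trimmomatic 0.33, STAR 2.5.2 and HTSeq on build mm10. Not given in the sources used here are HTSeq's mode and strand setting and the annotation it read. The authors deposited raw counts per gene, and the per-library files and the series table differed in 0 cells. Their comparison table holds CPM by the authors, equal to counts over the library total, log2 fold changes by the authors, a deposited score (a likelihood ratio), and the authors' p-values. Of the uniquely aligned reads, those with no feature were 17.2, 18.6, 20.6 and 19.9%, with both KO libraries above both WT libraries. Ambiguous reads were 0.891, 0.890, 0.867 and 0.865%, with both KO libraries below. Both kinds were left out, as were reads with several alignments.

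From the counts, edgeR 4.0.16 in R 4.3.3 was run with filterByExpr (minimum count 10, minimum total 15), TMM, the quasi-likelihood F test (robust) on genotype alone, and Benjamini-Hochberg adjustment at 0.05 over 13281 genes. The SE is the absolute log2 change over the square root of F. The alternatives were DESeq2 1.42.0, edgeR's exact test, DESeq2's size factors, library totals alone, no filter, a filter of 1 CPM in 2 libraries, the replicate block and leaving out each library. The code was tested on simulated data. GENCODE M21 gave symbols to 42462 identifiers, and the authors' table to 46 others. Lengths are those of the longest coding transcript in that annotation, since the deposited lengths exceed the exonic bases of many genes. Shared sequence was searched by BLAST of that transcript against all annotated transcripts. Named members are any called, the 6 smallest p, the 3 highest and 3 lowest levels and the 2 widest gaps between libraries in each compartment, and listed genes are those with the 2 smallest p, with others named by role. The members and lists were chosen with earlier results of these data known. One gene is not reported here.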

Additional observations from a re-analysis of the deposited data

How the results depend on the processing

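Of 396 combinations of a member with an alternative, 392 stayed on the same side of the threshold. The other 4 were Lars2 newly past it, which made the count of called mitochondrial members 1 with no filter on low counts, with edgeR's exact test, with the replicate block and without KO replicate 2 (0 to 1 over the left-out libraries). Cytosolic members called were 0 in every alternative run. Over all genes, calls numbered 191 with no filter, 81 with the exact test, 24 with DESeq2 and 41 (without WT replicate 1) to 365 (without WT replicate 2) with 1 library left out, against 3, and the cause was not tested. With the replicate number as a block there were 27 calls, Lars2 among them (log2 change 0.58, adjusted p = 0.00328). The labels do not say that the number marks a batch, and same-numbered libraries deviated together with r = 0.1 over 13281 genes, so the number was not taken as a pairing. With 1 library left out, the mitochondrial median ranged from -0.034 to 0.019 and its difference from the cytosolic median from -0.056 to 0.072, so neither keeps a sign. In those fits a group of 1 library is assumed to vary like the other. The sign of the log2 change turned in 14 members, with these ranges over the left-out libraries: Aars -0.14 to 0.053, Farsb -0.069 to 0.035, Hars -0.067 to 0.027, Kars -0.079 to 0.024, Lars -0.0082 to 0.038, Vars -0.17 to 0.014, Yars -0.083 to 0.038, Nars2 -0.12 to 0.25, Mars -0.049 to 0.066, Rars2 -0.10 to 0.12, Wars2 -0.13 to 0.11, Tars -0.059 to 0.0071, Eprs -0.014 to 0.036 and Sars2 -0.084 to 0.026. Wars2 also turned, to 0.00125, with library totals alone. Without Lars2, a setting chosen after its values were seen, the mitochondrial median was -0.000466. The exonic length used beside the coding length for levels was also chosen after the data were seen. The 2 mice a group limit the precision to the intervals given with the members.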
